A study of Mus musculus with 4 samples.

Results

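The cells described here are macrophages of the mouse lung that carry complement C1q but no RNA of 4 genes typical of macrophages of the pleural and peritoneal cavities. A cell was kept when it had at least 250 genes, at most 15% mitochondrial UMIs (unique molecular identifiers, each standing for 1 captured RNA molecule) and under 50% haemoglobin UMIs. It was counted as a member when C1qa, C1qb and C1qc together gave at least 5 UMIs, when Prg4, Fcna, Alox15 and Marco gave 0, and when Cd3e, Cd79a, Csf3r, Cxcr2, Msln and Upk3b also gave 0. The members were thus chosen by their measured UMIs of these genes, and the levels of the genes are a description. This rule found 444 members among 28168 kept cells. All were from 4 female FVB/NJ mice with the MMTV-PyMT transgene, which drives the polyoma middle T antigen from a mammary tumour virus promoter and gives mammary tumours. At 8 weeks of age 2 mice received a placebo pellet and 2 a pellet with 5 mg of tamoxifen released over 60 days, and whole lungs were taken 5 weeks later, at 13 weeks. No mouse without the transgene was in the study, so both groups describe tumour-prone animals, and each library is 1 mouse.

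Interstitial macrophages lie in the connective tissue of the lung, around vessels, airways and nerves, while alveolar macrophages lie in the airspace. C1q is the first component of the classical complement pathway, and resident tissue macrophages are a main source of it. Textbook accounts divide interstitial macrophages into a perivascular kind, with the hyaluronan receptor Lyve1 and the folate receptor Folr2, and a kind near nerves and airways, with much MHC class II, the proteins that present peptides to CD4 T cells. Tamoxifen is a ligand of the oestrogen receptor that blocks it in breast tissue.

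The 3 C1q genes lie side by side on mouse chromosome 4 (build GRCm38), all on the minus strand: C1qb at 136880129 to 136886187, C1qc at 136889804 to 136893065 and C1qa at 136895917 to 136898803. MHC class II genes lie on chromosome 17, H2-Aa at 34282744 to 34287823 and H2-Eb1 at 34305867 to 34316674. The 250 bases before the start of a C1q gene, which chose the cells, and of a pair of MHC class II genes, whose levels differed among the members below, are shown 5′ to 3′ from RefSeq (GRCm38.p6). Capitals in C1qb mark TGCTGA, a half-site of MAF factors, and AGGAAGT, a PU.1 core, here on the opposite strand. Capitals in the MHC class II genes mark GCAACT, a stretch in the X box, and CTGATTGG, a Y box.
C1qb, chr4:136886201-136886450, minus strand: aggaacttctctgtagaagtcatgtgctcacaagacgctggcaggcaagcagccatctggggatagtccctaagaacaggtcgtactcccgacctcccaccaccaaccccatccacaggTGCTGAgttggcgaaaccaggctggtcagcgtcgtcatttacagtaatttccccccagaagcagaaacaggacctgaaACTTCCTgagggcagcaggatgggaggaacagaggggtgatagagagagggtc
H2-Aa, chr17:34287824-34288073, minus strand: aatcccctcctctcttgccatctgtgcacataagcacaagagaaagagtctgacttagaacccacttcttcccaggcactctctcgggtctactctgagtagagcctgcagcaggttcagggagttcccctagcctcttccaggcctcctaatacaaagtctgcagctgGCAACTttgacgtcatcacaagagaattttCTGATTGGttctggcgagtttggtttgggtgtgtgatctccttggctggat
H2-Eb1, chr17:34305617-34305866, plus strand: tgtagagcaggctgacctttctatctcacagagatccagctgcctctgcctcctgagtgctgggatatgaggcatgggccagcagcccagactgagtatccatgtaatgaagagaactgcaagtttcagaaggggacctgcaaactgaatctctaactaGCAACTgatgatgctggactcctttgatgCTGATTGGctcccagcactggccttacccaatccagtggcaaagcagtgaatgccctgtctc
On either strand, CTGATTGG was in 3.83% of 32851 promoter windows of this length, GCAACT in 9.01%, AGGAAGT in 7.69% and TGCTGA in 16.1%. These matches describe the letters of the windows and do not show that a factor binds there.

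Members numbered 122 of 7530 kept cells in placebo 1, 69 of 6448 in placebo 2, 89 of 6882 in tamoxifen 1 and 164 of 7308 in tamoxifen 2. Their median depth was 5230, 8215, 6198 and 6059 UMIs in that order of mice, which is kept below. At most 1 member barcode was shared between any pair of libraries, and at most 128 barcodes of any kind. Scrublet called 1 member a doublet, in tamoxifen 1. Large cells weighed on 1 library: tamoxifen 1 held 4 members over 25000 UMIs, which together gave 23.2% of its summed UMIs, while the other libraries held 0.

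The C1q threshold was not crowded. Members with only 5 to 9 C1q UMIs numbered 7, 5, 4 and 7, and cells just outside, with 3 or 4 C1q UMIs, numbered 5, 1, 7 and 8. The median member had 102, 155, 111 and 108.5 C1q UMIs. On the other side of the rule, 58, 26, 73 and 82 cells met all criteria except that they had a cavity marker UMI, and 17, 11, 24 and 24 of them had exactly 1 such UMI. A further 38, 22, 20 and 29 C1q cells without a cavity marker UMI were left out for UMIs of the lymphocyte, neutrophil or mesothelial genes. With cells thinned to 1000 UMIs before the rule, members numbered 163, 94, 118 and 205, so membership depended on depth.

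Markers of macrophages were found in the members, some in most of them and others in fewer. Csf1r, the receptor for macrophage colony-stimulating factor, was found in 91.8%, 92.8%, 95.5% and 94.5% of members. The mannose receptor Mrc1 was found in 87.7%, 85.5%, 89.9% and 82.9%, and Ms4a7, a membrane protein of tissue macrophages, in 73.8%, 66.7%, 73.0% and 73.8%. Adgre1 was found in 57.4%, 66.7%, 67.4% and 67.1%, Fcgr1 in 45.9%, 52.2%, 48.3% and 33.5%, and Mertk in 20.5%, 46.4%, 38.2% and 32.3%. At a common 2000 UMIs per cell, Ms4a7 was found in 56.4%, 43.5%, 55.0% and 57.5% of members, against 0 to 1.03% of alveolar macrophages. Mertk at that depth was in 8.18% to 19.4% of members and 12.0% to 17.0% of alveolar macrophages. Csf1r was in 80.6% to 85.6% of members and 62% to 70.9% of non-classical monocytes. Mrc1 was in 66.1% to 75% of members and 40.4% to 51.9% of alveolar macrophages. Markers of other cell types were also present, in CPM (UMIs of a gene scaled to a fixed total of UMIs). The erythroid list summed to 16074, 6190, 2592 and 5562 CPM and the epithelial list to 342, 219, 42086 and 400 CPM. The endothelial list summed to 1015, 44.4, 32.9 and 130 CPM and the fibroblast list to 974, 1237, 1472 and 793 CPM. The non-classical monocyte list lay between 929 and 1338 CPM and the type 2 dendritic cell list between 1081 and 1695 CPM. Of 8 classical monocyte markers only Ly6c2 was at 0 in all mice, the list summed to between 566 and 677 CPM, and Ccr2 was in 20.1% to 29.2% of members. The 18 alveolar macrophage markers summed to between 222 and 504 CPM, and 1, 2, 4 and 5 members had 3 or more UMIs of alveolar macrophage genes. Between 5 and 9 members a mouse had 3 or more UMIs of endothelial, fibroblast, epithelial or lymphocyte genes. The rule chose the cells with macrophage genes, so these values describe them and test nothing.

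Among genes of at least 100 CPM, the 20 highest in members relative to all other kept cells included chemokines, scavenger receptors and a complement receptor. Ms4a7 (ratio 34.8), the metalloproteinase Mmp12 (33.2), Fcrls (30.4) and the 3 C1q genes, which the rule used, were also there. Mmp12 was in only 10, 13, 13 and 19 members. Ccl12, a chemokine that draws monocytes, had 260, 432, 547 and 592 CPM in members and between 7.63 and 14.6 CPM in other kept cells, a 43.3-fold ratio of the means. Ccl7 and Ccl2, of the same chemokine family, had ratios of 30.1 and 21.2. The lipid receptor Trem2 had a ratio of 23.6. Fcgr1, the high-affinity receptor for IgG, had a ratio of 26.4 and C3ar1, the receptor for complement C3a, 25.6. The cells with cavity markers had similar means of several of these genes, with 466 CPM of Ms4a7 against 553 CPM in members, 407 against 447 CPM of Trem2 and 801 against 745 CPM of Ccl2. Mgl2, a C-type lectin, averaged 1067 CPM in members and 430 CPM in cells with cavity markers. These are ratios of levels within the same 4 libraries and were not tested. Il6 gave 1, 1, 1 and 0 UMIs in members and 10, 7, 76 and 39 in cells with cavity markers.

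The members were divided into 2 sorts. Each member was thinned to 2000 UMIs, which left out 12, 7, 9 and 18 shallower members, and was sorted by whether the drawn UMIs held Lyve1, Folr2 or Timd4, a receptor for dying cells. Such a UMI was present in 41 of 110, 14 of 62, 28 of 80 and 43 of 146 members, which is 37.3%, 22.6%, 35.0% and 29.5%. The 95% exact binomial intervals, which cover counting error only, were 28.2 to 47.0%, 12.9 to 35.0%, 24.7 to 46.5% and 22.2 to 37.6%. The placebo and tamoxifen mice overlapped, and an exact two-sided permutation test gave p = 1, where 2 mice against 2 allow no p below 0.33. The background was lower: the same UMIs were in 5.61%, 0%, 3% and 0.909% of non-classical monocytes (the 0 of 71 cells has a 95% exact upper bound of 5.06%), in 1.03% to 4.29% of alveolar macrophages and in 0.414% to 0.776% of neutrophils. The median depths of these groups were 4154 to 5439, 2977 to 4081 and 2866 to 4162.5 UMIs, against 5512 to 8393.5 in members. Cells with cavity markers stood higher, at 75%, 65.4%, 75.7% and 75%. Folr2 made up most of the share, with a UMI in 28.2%, 22.6%, 25% and 26.0% of thinned members, against 13.6%, 1.61%, 12.5% and 11.6% for Lyve1. Timd4 was in 3.64%, 1.61%, 6.25% and 1.37% of them, near its 5.61%, 0%, 3% and 0.909% in non-classical monocytes. In placebo 2, Lyve1 was in more alveolar macrophages (3.00%) than members. Folr2 was in 0% of both other groups in each mouse.

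**Figure D1:**
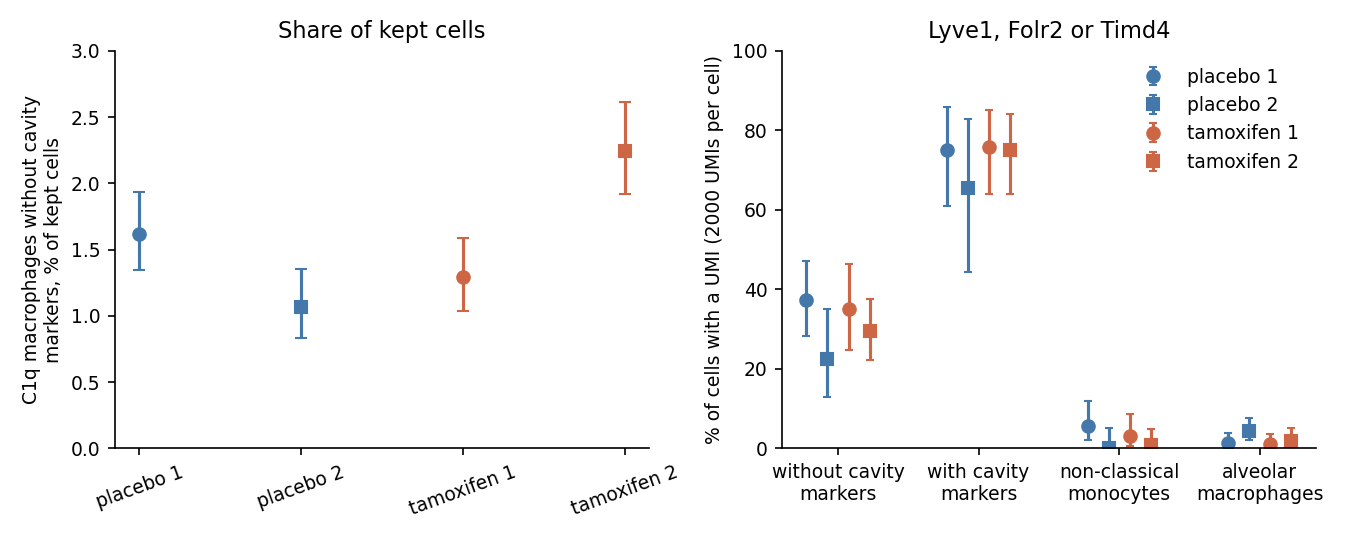
Left, members as a percentage of kept cells in each mouse; right, the percentage of cells with a Lyve1, Folr2 or Timd4 UMI at 2000 UMIs per cell in 4 cell groups. Points are mice and bars are 95% exact binomial intervals; on the left tamoxifen 2 is highest at 2.24% and placebo 2 lowest at 1.07% of all kept cells, and on the right the members lie between 22.6% and 37.3%, below the cells with cavity markers and above the other groups.

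In every mouse, members with a Lyve1, Folr2 or Timd4 UMI among those drawn had more of the genes of a perivascular, scavenging macrophage than members without. Their MHC class II was lower, also in every mouse. With and without refer to the drawn UMIs only. Counted over all UMIs, 61 of 122, 29 of 69, 38 of 89 and 78 of 164 members had such a UMI. In each mouse that is more than the members with and the shallower, unsorted members together. Some members without thus held such a UMI among those not drawn. Levels were taken from the UMIs that had not been drawn, so that the UMIs that sorted a member did not measure it, and edgeR's quasi-likelihood test was fitted with the mouse as a block. At an adjusted p of 0.05, 144 of 3443 genes differed (4.18%), of which 73 were higher (2.12%) and 71 lower (2.06%) in members with such a UMI. This comparison was chosen after the data had been seen. It gave 87 genes without placebo 2, 89 without tamoxifen 2 and 71 with no mouse block. Median depth was 5505, 8370.5, 5344 and 6364 UMIs with and 5692, 8393.5, 8112.5 and 6687 without, so the sorts were close in depth except in tamoxifen 1, where members without were deeper; the part of depth there was not tested.

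Apoe, the lipid carrier, stood at 12016, 12865, 12651 and 11514 CPM in members without and at 23382, 26630, 22745 and 20761 CPM in members with such a UMI. The 4 mice did not overlap between the sorts, and the log2 difference was 0.93 (SE 0.0682, adjusted p = 5.55e-07). F13a1, which encodes the A chain of coagulation factor XIII, went from 146, 308, 105 and 201 CPM to 876, 1212, 1069 and 1038 CPM, a log2 difference of 2.53 (SE 0.190, adjusted p = 5.93e-07). The scavenger receptor Stab1 went from 296, 409, 167 and 276 CPM to 869, 1028, 522 and 847 CPM. Each of these genes was higher with the UMI in 4 of 4 mice. Mrc1 rose by a log2 difference of 1.02 (adjusted p = 8.78e-05), from a mean of 560 ± 74.5 to 1135 ± 202 CPM (SD, n = 4). Gas6, a bridge between dying cells and their receptors, rose from 186 ± 33.3 to 468 ± 114 CPM (adjusted p = 0.000756). The growth factor Igf1 rose from 49.8 ± 17.9 to 181 ± 41.7 CPM (adjusted p = 0.000982). Pf4, Selenop, Ltc4s, Maf and Csf1r were also higher. Of 12 tested genes of the perivascular list, 8 rose and 1, Mgl2, fell, and the list's median log2 difference was 1.34, against 0.00 over all genes tested. Of 16 genes for efferocytosis and scavenging 5 rose and 0 fell.

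On the MHC class II side, Cd74, the invariant chain, stood at 38130, 28058, 37353 and 32418 CPM in members without and at 12742, 7287, 11103 and 8130 CPM in members with a UMI of the 3 genes. H2-Aa stood at 17816, 12016, 17437 and 15370 CPM without and at 5905, 1897, 5500 and 3204 CPM with. The sorts did not overlap for either gene, with log2 differences of -1.82 (SE 0.0766, adjusted p = 9.51e-10) and -2.04 (SE 0.141, adjusted p = 4.45e-07). H2-Ab1, the partner chain of H2-Aa, fell from 7278 ± 1217 to 1974 ± 877 CPM. H2-DMa and H2-DMb1, which load peptide, fell by 1.28 and 1.93 on the log2 scale. H2-Eb1, whose promoter is shown above with that of H2-Aa, had 523, 185, 294 and 263 CPM without and 226, 145, 120 and 61.7 CPM with (adjusted p = 0.00246). Of 10 tested MHC class II genes 9 fell and 0 rose, with a median of -1.33. Ccr2, the receptor that brings monocytes into tissue, fell from 157 ± 37.7 to 20.1 ± 22 CPM and the calcium-binding protein S100a4 from 322 ± 47.6 to 76.6 ± 31.2 CPM. Cd209a, a lectin of monocyte-derived and dendritic cells, fell from 96.8 ± 48.8 to 8.43 ± 10.2 CPM. The type 2 dendritic cell list fell in 3 of 4 tested genes, and the nerve and airway list, which holds MHC class II genes too, fell in 7 of 15 and rose in 0. Cells with 2 or more cavity marker UMIs had 1355, 2849, 2294 and 1677 CPM of H2-Aa and 911, 1019, 406 and 697 CPM of Folr2. All members together had 12152, 8740, 12342 and 10213 CPM of H2-Aa and 231, 188, 129 and 193 CPM of Folr2. How far members with a UMI of the 3 genes resemble those cells was not tested.

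Genes of fibroblasts and other stromal cells moved with this sort. Bgn, a matrix proteoglycan, had 135, 329, 294 and 195 CPM without and 27.4, 0, 0 and 11.2 CPM with, and Igfbp7, Serping1, Inmt, Mgp and Sparcl1 were lower as well. Few members carried Bgn: 11, 6, 5 and 7, with 58.9%, 69.3%, 37.7% and 36.8% of its UMIs in 1 member of each mouse. Without the members that had 3 or more UMIs of other cell types, 109 of 3167 genes differed, and 65 of them were among the 144. In that fit Bgn did not pass the filter on low counts, Cd74 differed by -1.87 and H2-Aa by -1.93 on the log2 scale, and F13a1 differed by 2.38.

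**Figure D2:**
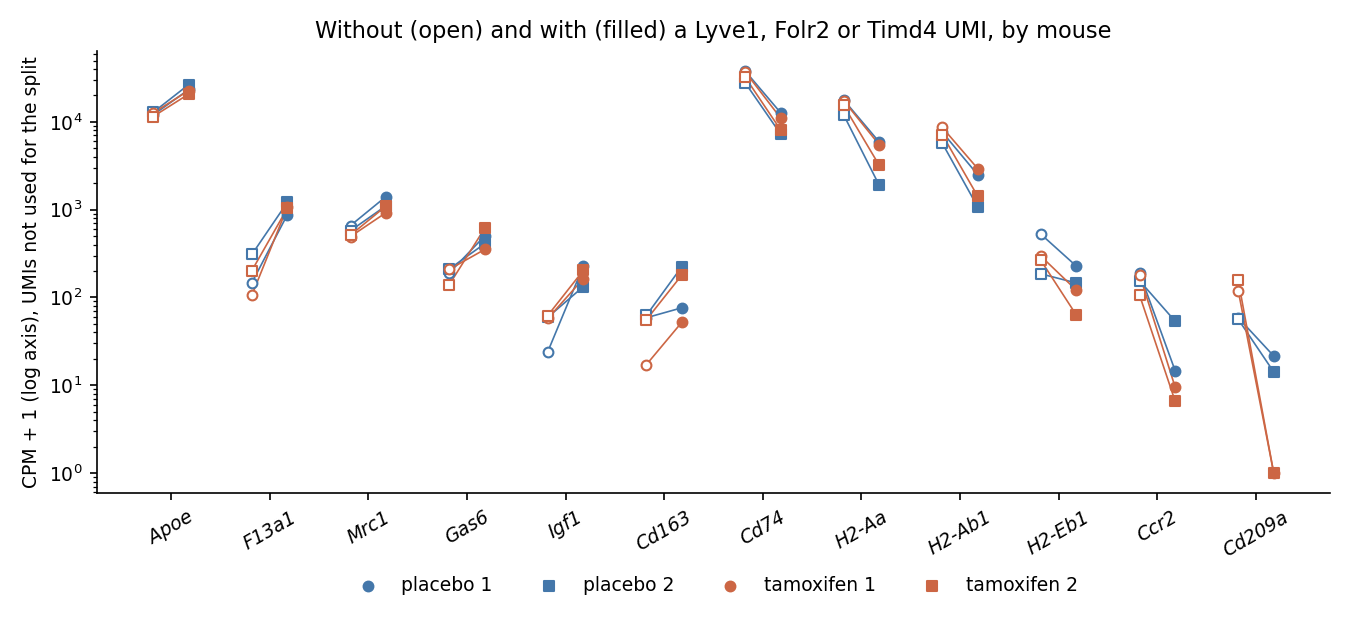
CPM plus 1 on a log axis for 12 genes, with a line for each mouse. Members are without (open) or with (filled) a Lyve1, Folr2 or Timd4 UMI among the UMIs drawn to sort them. Apoe and the other genes on the left rise along every line, and Cd74, H2-Aa, H2-Ab1, H2-Eb1, Ccr2 and Cd209a fall along every line.

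The MHC class II level of single members spread widely. H2-Aa, H2-Ab1, H2-Eb1 and Cd74 together took a median of 3.15%, 0.840%, 3.47% and 0.949% of the UMIs of a member, with highest members of 21.3%, 17.8%, 16.5% and 16.1%. The share of members under 1% was 32.8%, 50.7%, 28.1% and 52.4%. The low and high mice were thus 1 of each group: placebo 1 and tamoxifen 1 were alike, as were placebo 2 and tamoxifen 2. In the UMIs not drawn, the median was 0.873%, 0.126%, 0.510% and 0.493% in members with a drawn Lyve1, Folr2 or Timd4 UMI. In members without a drawn one, the median was 5.87%, 1.74%, 7.31% and 2.15%. Between 9.80% and 33.3% of members in each sort and mouse lay between 0.5% and 2%. Whether the members form a range or separate types was not tested. C1q, which chose the cells, took medians of 1.90%, 1.92%, 1.70% and 1.80% of UMIs.

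**Figure D3:**
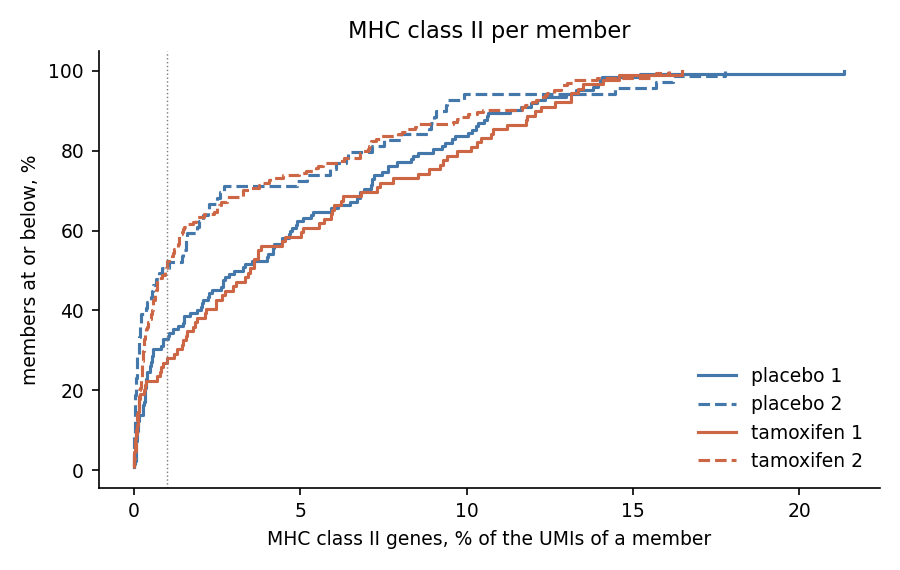
Cumulative percentage of members against the percentage of their UMIs that came from H2-Aa, H2-Ab1, H2-Eb1 and Cd74, a line for each mouse; the dotted line is at 1%. Placebo 2 and tamoxifen 2 cross it at 50.7% and 52.4% of members, placebo 1 and tamoxifen 1 at 32.8% and 28.1%.

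Tamoxifen was compared with placebo first for the number of members. They were 1.62% and 1.07% of kept cells with placebo and 1.29% and 2.24% with tamoxifen, so the groups overlapped (exact two-sided permutation test, p = 0.667). Among C1q cells with and without cavity markers, members were 67.8% and 72.6% with placebo and 54.9% and 66.7% with tamoxifen. These groups did not overlap, at the smallest p that 2 against 2 can give (exact permutation test, p = 0.33). A share depends on the other cells counted with it. Of cells without Csf3r or Cxcr2 UMIs, which are genes of neutrophils, members were 2.73% and 3.47% with placebo and 2.29% and 4.81% with tamoxifen (exact permutation test, p = 1), so that placebo 2 was lowest of all kept cells but not of these.

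No gene differed between tamoxifen and placebo members after adjustment. Counts were summed over the members of each mouse and tested with edgeR's quasi-likelihood test: 0 of 7094 genes passed an adjusted p of 0.05 (0%), and 242 had an unadjusted p under 0.05, 107 higher (1.51%) and 135 lower (1.9%). DESeq2 also called 0, with 94 at an unadjusted p under 0.05. Leaving out 1 mouse gave 0 calls without placebo 1, 13 without placebo 2, 8 without tamoxifen 1 and 119 without tamoxifen 2, and testing all genes with no filter on low counts gave 166. Data were simulated for this design with the same spread between mice (dispersion 0.0349) for every gene and changes only among genes of higher level. In them, 40% of genes changed by 1 on the log2 scale were recovered and 94% of those changed by 2. Genes held by few cells were not simulated, so recovery for them was not tested. Groups of 2 mice did not overlap for 1123 genes in the higher direction (15.8%) and 1181 in the lower (16.6%). The values below are CPM scaled by the TMM library factors, and every adjusted p is 0.999 unless given.

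Clec10a, a lectin that binds galactose sugars on tissue macrophages, had the smallest unadjusted p of the genes named for lower values. It stood at 271 and 228 CPM with placebo and at 139 and 129 CPM with tamoxifen, with a log2 difference of -0.90 (SE 0.184). Many cells carried it, 65, 27, 48 and 61 members, and no member held more than 24.1% of its UMIs in a mouse. Cd209g and Cd209f, lectins in the perivascular list, had 72.9 and 24 against 18.2 and 10.2 CPM, and 111 and 27.5 against 18.2 and 26.4 CPM. The groups stood apart for each of these lectins, but placebo 1 was far above placebo 2 for the last pair. The lectin Cd209a stood apart the other way, at 53.9 and 36.1 against 82.6 and 87.4 CPM. It was in 11, 4, 5 and 9 members. Of the 18 genes of the perivascular list, 0 were called, 5 stood apart lower and 1 higher, beside the 16.6% and 15.8% of all genes. Folr2 had 233 and 189 against 137 and 203 CPM, and Lyve1 67.1 and 15.5 against 56.0 and 65.0 CPM. Both overlapped between groups.

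Among genes with higher values, Anxa1, whose protein limits neutrophil entry into tissue, had 157 and 256 CPM with placebo and 451 and 440 CPM with tamoxifen (log2 difference 1.11, SE 0.243). It was carried by 53, 41, 55 and 106 members. Plaur, the receptor of urokinase, had 124 and 134 against 196 and 204 CPM. Both genes were spread over many cells, and the groups did not overlap for either. Bhlhe40, a transcription factor, had 37.9 and 39.5 against 64.4 and 86.4 CPM, and the small heat shock protein Hspb1 75.8 and 20.6 against 136 and 171 CPM. Hspb1 was in only 15, 4, 9 and 23 members, and 1 member held 60.8% of its UMIs in tamoxifen 1. Anxa2 had 191 and 203 against 507 and 291 CPM. Without the 4 large members of tamoxifen 1 the log2 difference of Anxa2 was 0.69 instead of 1.01, and that of Anxa1 0.99. For Hspb1 it was 1.17 instead of 1.63.

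For some large differences a few cells held most of the UMIs in at least 1 mouse. Scgb1a1, the secretoglobin of airway club cells, had 309 and 136 against 42592 and 362 CPM, and 1 member held 96.2% of its UMIs in tamoxifen 1. The epithelial marker list summed to 342, 219, 42086 and 400 CPM. Retnla, a secreted protein of alternatively activated macrophages, had 168 and 189 against 2388 and 474 CPM. It was in 11, 4, 14 and 13 members, and in each mouse the 5 members with most held 91.3%, 100%, 97.9% and 96.6% of it. Spp1, osteopontin, had 43.7 and 842 against 2376 and 117 CPM, with 1 member holding 88.4% in placebo 2 and 70.7% in tamoxifen 1. Dcn, a fibroblast proteoglycan, had the smallest adjusted p, 0.0730, from 70.0 and 48.1 against 2.80 and 3.05 CPM. All 48 of its UMIs in placebo 1 were in 1 member, while its 28 UMIs in placebo 2 were in 4 members, of which the highest held 32.1%.

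**Figure D4:**
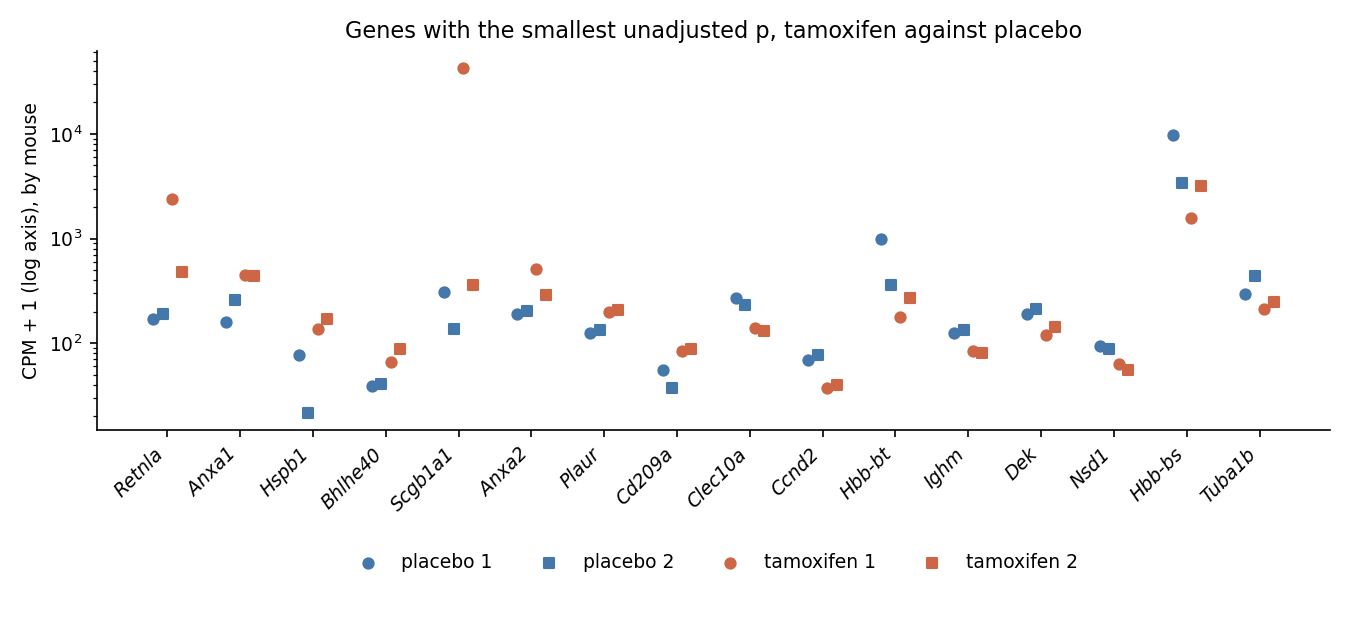
CPM plus 1 on a log axis for the 16 genes with the smallest unadjusted p among those of at least 50 CPM whose groups did not overlap, 8 higher and 8 lower with tamoxifen. Points are the 4 mice; Clec10a, Anxa1 and Plaur have both mice of a group close together, while Scgb1a1 and Retnla are highest in tamoxifen 1 and far apart between the tamoxifen mice.

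Genes tied to inflammation and stress showed the same mix. Ccl2 had 624 and 617 against 776 and 1076 CPM and Ccl12 262 and 435 against 581 and 624 CPM, and both stood apart. Of the 19 tested chemokines 0 were called, 2 stood apart higher and 0 lower, beside 15.8% and 16.6% of all genes, with a median log2 difference of 0.31 against -0.00 over all genes. Complement C3, the central protein of the cascade that C1q starts, had 53.9 and 37.8 against 79.8 and 86.4 CPM. Of the 12 tested genes of the complement list 0 were called, 1 stood apart higher and 1 lower. These counts stand beside the same 15.8% and 16.6%, and the median log2 difference was -0.000279. C1qa itself had 7880 and 7645 against 6486 and 7918 CPM, overlapping, with a log2 difference of -0.11 (SE 0.216). In the NRF2 antioxidant list 0 of 17 were called, 7 stood apart higher and 0 lower, beside the same 15.8% and 16.6%. Haem oxygenase Hmox1, which degrades haem, had 197 and 186 against 228 and 303 CPM. Summed erythroid markers, which are haemoglobin and other red cell genes, were 16074, 6190, 2592 and 5562 CPM beside these values, and their part in them was not tested.

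In the proliferation list 0 of 27 genes were called, 8 stood apart lower and 0 higher, beside 16.6% and 15.8% of all genes, and the median was -0.89. Mki67, the marker of cycling cells, had 35.0 and 110 against 1.40 and 35.6 CPM, which overlapped. Top2a had 33.5 and 97.9 against 2.80 and 30.5 CPM, and the replication helicase subunit Mcm3 30.6 and 63.6 against 22.4 and 24.4 CPM. Few cells lay behind these levels: members with at least 5 UMIs of Mki67, Top2a, Birc5 and Ube2c numbered 3 of 122, 3 of 69, 0 of 89 and 7 of 164. The oestrogen receptor list had 0 of 7 called, 3 apart lower and 1 apart higher, too few to read against 16.6% and 15.8% of all genes. MHC class II genes had 0 of 14 called, 2 apart higher and 0 lower beside the same 15.8% and 16.6%, with H2-Aa at 12274 and 8788 against 13122 and 10765 CPM.

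The difference between members with and without a drawn Lyve1, Folr2 or Timd4 UMI was tested for a dependence on tamoxifen. In edgeR's interaction test 0 of 4347 genes were called (0%), with 182 at an unadjusted p under 0.05 and a smallest adjusted p of 0.141, for Spp1. The tamoxifen difference of members was also set against that of other cells of the same mice. Against alveolar macrophages 0 of 9741 genes differed (0%; 270 at an unadjusted p under 0.05), against non-classical monocytes 0 of 7706 (0%; 311), and against cells with cavity markers 7 of 7865 (0.089%). Anxa1 was among those 7, with a log2 difference of 1.11 in members and -0.64 in cells with cavity markers (difference 1.68, SE 0.245, adjusted p = 0.0486). The call was lost without members with alveolar macrophage UMIs (difference 1.33, adjusted p = 0.293), without placebo 1 (1.91, adjusted p = 0.0555) and without placebo 2 (1.43, adjusted p = 0.115), with the direction kept each time. In placebo 2, 1 cell with cavity markers held 42.8% of the Anxa1 UMIs of its group. A simulation of this comparison used the same dispersion and also changed only genes of higher level. In it, 6% of genes that differed by 1 on the log2 scale were recovered and 64% of those that differed by 2.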

How the data were processed

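The authors deposited, per the file headers, filtered gene-by-barcode matrices of UMI counts made with Cell Ranger 5.0.0. Version 8.0.1 and the mm10 build are given by the submitters' processing notes, and which version made these counts was not settled. Libraries came from the 5′ 10x assay, per the labels' protocols, with 32285 genes each and 4 mice, 2 in each group; whether the mice of a group share a litter is not given in the sources used here. Members and gene lists were chosen with earlier results of these data known.

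Counts were summed over the members of each mouse and tested with edgeR 4.0.16 (quasi-likelihood, TMM, filterByExpr, Benjamini-Hochberg adjustment, threshold 0.05) in R 4.3.3; DESeq2 1.42.0 was an alternative. Interactions with other cell groups, and the sort by Lyve1, Folr2 or Timd4, used the mouse as a block. The 3 fits were tested on simulated data with known changes. Doublets were scored with Scrublet in scanpy 1.11.5, with a fixed score of 0.25 in placebo 2, where the automatic threshold called 0 cells. Members' summed UMIs ranged from 585327 to 1037321 a mouse. Named genes were the 8 with the smallest p in each direction among those of at least 50 CPM with groups apart, the genes of the rule, the highest genes of each list and those with p under 0.05, and the 20 with the largest ratio; Dcn, Spp1 and the genes of the sort were chosen after their values were seen.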

Additional observations from a re-analysis of the deposited data

Results flagged for a closer look

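The tamoxifen difference of 7 genes differed between members and cells with cavity markers in edgeR's interaction test. The log2 difference of differences, members minus cavity cells, was 5.48 for Gpnmb, 3.98 for Atp6v0d2, 13.1 for Krt18, 1.68 for Anxa1, -3.71 for Mgp, -5.20 for Bgn and -7.13 for Vwf. Single cells held much of most of them. In placebo 2, 1 cell held all 57 Krt18 UMIs of the cavity cells, and in tamoxifen 1 another held 88.5% of those of the members. Gpnmb had 1 member with 98.0% of its UMIs in placebo 2 and 1 with 81.2% in tamoxifen 1. For Vwf, 1 member held 78.6% in placebo 1. For Mgp, 1 member held 64.0% in placebo 2 and 1 cavity cell held 88.5% in tamoxifen 2. For Bgn, 1 member held 69.3% in placebo 2 and 1 cavity cell held 88.5% in tamoxifen 2. Anxa1 was carried by 53, 41, 55 and 106 members and by 31, 18, 51 and 54 cavity cells. In placebo 2, 1 cavity cell held 42.8% of the Anxa1 UMIs of that group. Leaving out members with alveolar macrophage UMIs reduced the 7 calls to 1, Mgp (difference -3.55, adjusted p = 0.00570). The difference there was 6.60 for Gpnmb, -6.91 for Vwf, -5.02 for Bgn and 1.33 for Anxa1, none of which passed. Atp6v0d2 and Krt18 were not among the genes tested in that setting. Atp6v0d2 was itself among the alveolar macrophage genes that marked those members, so the setting could not test it.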

How the results depend on the processing

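The count of 0 genes between tamoxifen and placebo was 166 with no filter on low counts, 1 with the members thinned to 2000 UMIs and 1 with the replicate block; leaving out 1 mouse gave 0 to 119, the latter without tamoxifen 2, where the lone tamoxifen mouse was assumed to vary like the placebo mice. Deviations from the group means over 5748 genes had a correlation of -0.0341 for same-numbered mice and 0.0341 for crossed mice. With 2 mice a group these values mirror each other by construction. Whether the numbers pair the mice was thus not settled. Against cavity cells, 7 calls became 180 with no filter and 1 without members with alveolar macrophage UMIs, and 5 to 196 with a mouse left out. Against alveolar macrophages, 0 calls became 39 with no filter and 1 without members with alveolar macrophage UMIs, and 0 to 22 with a mouse left out. Against non-classical monocytes, 0 became 121 with no filter, 1 without TMM and 3 without members with alveolar macrophage UMIs, and 3 to 22 with a mouse left out. The sort by Lyve1, Folr2 or Timd4 gave 144 calls, 365 with no filter, 71 with no mouse block, and 87 (without placebo 2) to 176 with a mouse left out. The tamoxifen minus placebo difference in the share of members was 0.424 percentage points, -9.40 among C1q cells, and -0.0519 to 0.899 with a mouse left out. For the share with Lyve1, Folr2 or Timd4 it was 2.30 points, -3.76 at 1000 UMIs, -0.886 unthinned, and -5.05 to 9.65 with a mouse left out. Thinned, Ccnd2 differed by 0.16 and Dek by 0.044 on the log2 scale, the reverse of the main direction. The cause of these changes was not tested. All settings of the sort, and those leaving out members with Retnla, haemoglobin, cycling genes or over 25000 UMIs, were chosen after seeing the data. With 2 mice a group, a gene changed by 1 on the log2 scale would often be missed.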
